A study of Mus musculus with 3 samples.

Results

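The genes of the ErbB receptor family and of their inhibitors were examined for H3K27ac, an acetylation of histone H3 that marks promoters and enhancers in use. The 7 genes were the receptors Egfr, Erbb2, Erbb3 and Erbb4 and the inhibitors Errfi1 and Lrig1. Lrig3 was grouped with the inhibitors as a relative of Lrig1. A region belonged to a gene if it lay inside it, or within 50 kb of it with no other protein-coding gene nearer. By this rule 25 of 52938 regions of the genome were members, made of 38 of 107153 peaks (9 homozygous, 15 heterozygous and 14 wild-type peaks). Lrig3 had none.

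ChIP-seq for this mark was done on MIN6, an insulinoma-derived mouse line that serves as a beta cell model, with 1 library each for homozygous Arid1a knockout, heterozygous Arid1a knockout and wild type. The product of Arid1a is a subunit of SWI/SNF, a complex that moves nucleosomes and that Arid1a helps to bind DNA, and the series concerns its loss in relation to beta cell regeneration and EGF signalling. Per the labels, cells stably expressing Cas9 from a lentivirus were infected with a lentiviral guide RNA against Arid1a and selected, single-cell clones were picked, and PCR genotyping and Western blotting for ARID1A sorted them into the 3 genotypes. In the wild-type list the peaks are named with the word GAL4, which no source used here explains. With 1 library per genotype there is no replicate and no test, and each difference below is between single libraries.

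Receptors of the ErbB family are tyrosine kinases of the cell surface that bind EGF-like ligands or neuregulins and signal as pairs. Egfr is the receptor for EGF, TGF-alpha, betacellulin and related ligands, Erbb2 has no known soluble ligand and acts as a partner of the other receptors, Erbb3 binds neuregulins but has a weak kinase, and Erbb4 is a neuregulin receptor with an active kinase. Errfi1, also called Mig-6, is induced by receptor signalling and binds and blocks the kinase domain. Lrig1 is a transmembrane protein that lowers the amount of ErbB receptors, and Lrig3 is its relative. Signalling through the EGF receptor is a known route of beta cell growth in mice.

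A region here is the union of the peaks of the 3 lists that touch or overlap, and it was present in a library that had a peak in it. A region was gained against another library if present in the first and absent from the second, and lost in the reverse case. Absence means that the authors' peak caller listed no peak, which does not show that acetylation was absent. There were 34298 homozygous peaks over 20.2 Mb, 31365 heterozygous peaks over 17.5 Mb and 41490 wild-type peaks over 25.1 Mb. The lowest background recovered in each list, a stand-in for depth, was 1.73, 1.73 and 2.17 reads per position in the homozygous, heterozygous and wild-type lists. Depth and genotype therefore cannot be told apart in the comparisons with wild type. With 1 library per genotype, clone and genotype cannot be told apart in any comparison. All 9 beta cell markers, among them Ins1, Pdx1 and Neurod1, had regions in each library (32 homozygous, 25 heterozygous and 31 wild-type regions in sum). Of 21 markers of alpha, delta, PP, acinar, duct, mesenchymal, immune and endothelial cells, 4 had regions in the homozygous, 8 in the heterozygous and 8 in the wild-type list, 9, 16 and 18 regions in sum, and 9 had none in any, among them Ptf1a, Sox9 and Cdh5. Among those with regions, Pecam1 had 3 homozygous, 7 heterozygous and 5 wild-type regions, Irx2 had 2, 2 and 3, and Gcg had 3, 1 and 0. The part of the markers in the results was not tested.

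Start sites were known for each gene but Erbb3, for which peaks at the start could not be assessed. Promoter sequences are shown for the 3 of the other genes with a peak at or near a start site. A peak there was in the heterozygous list only (Egfr) or in all lists (Errfi1 and Lrig1), though not always over the printed bases. The sequences are the 250 bases before the start site, from RefSeq on GRCm38.p6, the assembly of mm10, 5′ to 3′ on the strand of the gene. Capitals mark matches on either strand to the GC box GGGCGG, the AP-1 motif TGANTCA, the cyclic AMP response element TGACGTCA, the CCAAT box CCAAT and the TATA box TATAAA. The first lies at chr11:16751953-16752202 on the plus strand, the second before the downstream of 2 start sites of Errfi1 at chr4:150854820-150855069 on the plus strand, and the third at chr6:94700146-94700395 on the minus strand.
Egfr: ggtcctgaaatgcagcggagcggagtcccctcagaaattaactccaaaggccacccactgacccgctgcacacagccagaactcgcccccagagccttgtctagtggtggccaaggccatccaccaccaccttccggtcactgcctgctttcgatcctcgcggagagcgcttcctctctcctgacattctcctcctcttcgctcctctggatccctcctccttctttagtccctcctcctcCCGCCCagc
Errfi1: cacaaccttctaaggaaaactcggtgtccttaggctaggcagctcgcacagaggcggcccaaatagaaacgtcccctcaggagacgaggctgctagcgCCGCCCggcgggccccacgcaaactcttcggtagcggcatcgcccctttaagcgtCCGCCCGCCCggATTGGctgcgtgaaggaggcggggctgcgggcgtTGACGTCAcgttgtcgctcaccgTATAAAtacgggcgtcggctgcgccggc
Lrig1: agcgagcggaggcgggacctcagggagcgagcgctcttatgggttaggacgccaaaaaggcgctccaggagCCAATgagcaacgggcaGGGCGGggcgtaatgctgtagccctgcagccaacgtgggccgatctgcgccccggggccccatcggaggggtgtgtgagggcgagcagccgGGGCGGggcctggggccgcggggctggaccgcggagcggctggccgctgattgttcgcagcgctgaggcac

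The Egfr window had 60.8% G and C and 11 CpG dinucleotides, the Errfi1 window 64.8% and 30, and the Lrig1 window 71.6% and 26, against medians of 55.6% and 10 over 21263 promoters of protein-coding genes. Errfi1 had a cyclic AMP response element beginning 51 bases before the start, a motif found in 1.92% of all promoter windows, and a TATA box beginning 28 bases before it, found in 11.6%. It also had 3 GC boxes, of which 2 overlap, and a CCAAT box. Egfr had a single GC box, beginning 9 bases before the start, and Lrig1 had 2 GC boxes and a CCAAT box, motifs found in 42.6% (GC box) and 35.4% (CCAAT box) of windows. No AP-1 match was found in the 3 windows, against 6.13% of all promoters. These are matches of letters and not binding sites. The window before the other Errfi1 start site had 38.0% G and C, a single CpG and no match to any of the 5 motifs, and no library had a peak in it.

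Egfr lies on chromosome 11 at 16752203 to 16913907 (mm10) on the plus strand. It had 1 region in the homozygous, 5 in the heterozygous and 0 in the wild-type library. The heterozygous list was the shortest, and the part of list length in these counts was not tested. The peaks covered 503 bp in the homozygous and 1714 bp in the heterozygous library. Of 21887 protein-coding genes, 11 had 5 or more heterozygous regions and none in wild type (0.0503%).

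The region over the Egfr start site, at 16752074 to 16752661, was heterozygous only. This peak was 588 bp wide with its summit at 16752293, and it covered the last 129 bases of the promoter sequence printed above and the start site itself. Its summit pile-up, the number of reads over the summit recovered from the deposited fold and p, was 37 (exact Poisson 95% interval 26.1 to 51.0, counting error only) over a background of 6.60. A peak within 500 bp of a start site in the heterozygous list alone was found for 0.623% of 17492 genes. The nearest wild-type peak to it was 160 kb away and the nearest homozygous peak 57.6 kb away.

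Inside the gene, 17.5 kb downstream of the start site, lay a heterozygous peak of 376 bp at 16769661 to 16770036, with a pile-up of 36. A further pair lay near each other, 57.4 and 58.0 kb from the start. The heterozygous peak at 16809580 to 16809779 had the minimum width of 200 bp and a pile-up of 20. The other region of the pair, at 16810246 to 16810748, was present in both knockouts and was the only homozygous region of the gene. There the homozygous peak was 503 bp wide with 26 reads at its summit, and the heterozygous peak lay within it, 238 bp wide with 27 reads. The homozygous list thus had a peak 467 bp from the narrow heterozygous one, and wild type had none within 130 kb of either.

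The fifth region, at 16702235 to 16702546, lay 49.7 kb upstream of Egfr and just inside the limit of 50 kb. The next, at 16701179 to 16701791 and heterozygous only, was just outside it at 50.4 kb and was not counted. Their heterozygous folds were 3.73 inside and 3.85 outside the limit, with pile-ups of 45 and 46 reads. The backgrounds under the 5 heterozygous Egfr peaks were 2.98 to 6.71 times the lowest of the list, whose median was 3.88 times. In fold and in −log10 q, all 5 peaks were below the median of their list. Their folds of 2.93 to 5.00 lay above those of 3.62% to 35.0% of heterozygous peaks, and their −log10 q above those of 0.542% to 37.4%. With a floor of 10 on −log10 q for all lists, 1 homozygous, 2 heterozygous and 0 wild-type regions were left.

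**Figure D1:**
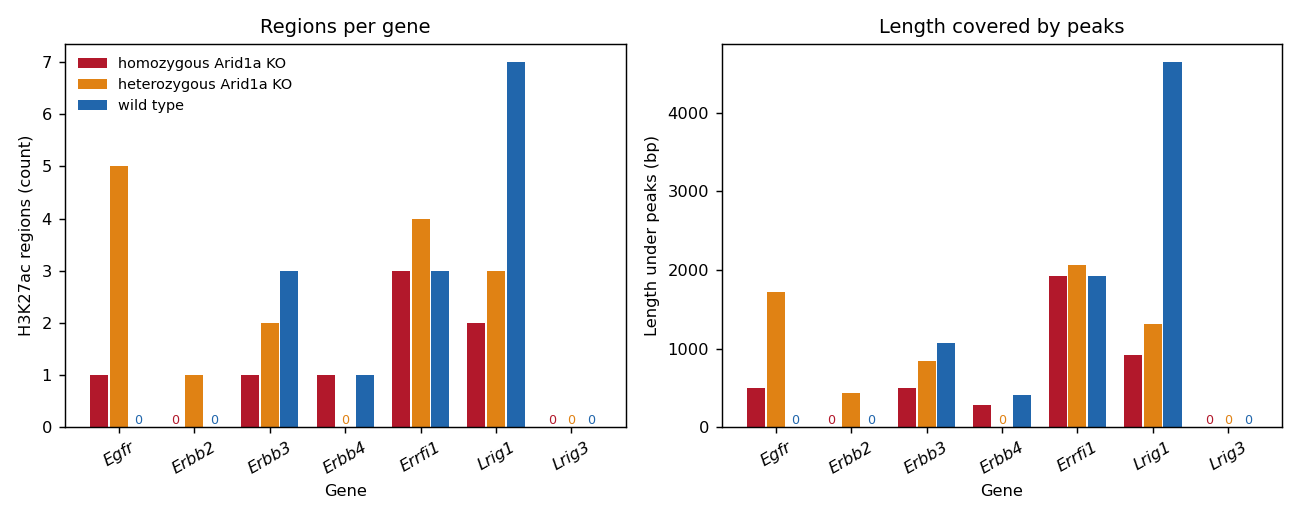
Number of H3K27ac regions (left) and base pairs under peaks (right) at each of the 7 genes, 1 library per genotype, with zeros written out. Egfr had 1, 5 and 0 regions and Lrig1 2, 3 and 7 in the homozygous, heterozygous and wild-type libraries, and Lrig3 had none.

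Erbb2, on chromosome 11 at 98412484 to 98437716, had 0 regions in the homozygous, 1 in the heterozygous and 0 in the wild-type library. The heterozygous peak, at 98415824 to 98416252, lay inside the gene 3.34 kb downstream of the start site, which no peak covered. Its fold was 3.20, its pile-up 26 reads, and 1.91% of heterozygous peaks had a lower −log10 q. The nearest homozygous and wild-type peaks were 14.9 and 14.8 kb away, and with the floor of 10 no Erbb2 region was left.

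Erbb3, on chromosome 10 at 128567523 to 128589635, had 1 homozygous, 2 heterozygous and 3 wild-type regions. The region inside the gene, at 128583258 to 128583841, was present in all 3 libraries. There the peak was 499 bp wide in the homozygous, 372 bp in the heterozygous and 584 bp in the wild-type library. The pile-ups were 37, 15 and 57 reads over backgrounds of 2.20, 1.73 and 3.70, and the folds were 11.9, 5.85 and 12.3, each within its own list. This was the region of the 7 genes with the highest fold in the homozygous and wild-type lists, above 91.2% and 96.1% of all peaks there, while 50.6% of heterozygous peaks had a lower fold than the heterozygous peak.

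The remaining Erbb3 regions were each found in a single library and lay outside the gene on the side of the higher coordinate. The strand of Erbb3 was not known here, so whether that is the side of its start could not be assessed. A heterozygous peak at 128590043 to 128590514 was 408 bp beyond the gene, with a fold of 8.13 and 25 reads at its summit. A pair of wild-type peaks at 128595553 to 128595782 and 128595880 to 128596135 lay 5.92 and 6.25 kb beyond it, with folds of 4.75 and 3.57. The heterozygous peak was the stronger within its list, with 43.7% of peaks below its −log10 q, against 19.0% and 0.721% for the wild-type pair. With the floor of 10 the count was 1 in each library, the region inside the gene in the homozygous and wild-type lists and the one just beyond it in the heterozygous list.

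Erbb4, on chromosome 1 at 68031884 to 69108576, is the longest of the genes at 1077 kb and had 1 homozygous, 0 heterozygous and 1 wild-type region. Both lay deep inside the gene and 647 kb from each other. The homozygous peak, at 68720838 to 68721116, was 387 kb from the start site and had 18 reads at its summit. The wild-type peak, at 68073508 to 68073920, was 1034 kb from it and had 22 reads. No library had a peak at the start site used here, 69108059, which lies inside the gene's end at 69108576.

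Among the inhibitors, Errfi1 shared most of its regions between the libraries. It lies on chromosome 4 at 150853796 to 150868889 on the plus strand and had 3 homozygous, 4 heterozygous and 3 wild-type regions, of which 3 were in all libraries. The peaks covered 1918, 2062 and 1921 bp in the homozygous, heterozygous and wild-type libraries. A peak within 500 bp of a start site in all 3 lists was found for 47.7% of genes.

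A pair of Errfi1 regions, at 150853941 to 150854916 and 150855087 to 150856006, flanked the downstream start site at 150855070 in each library. The site fell between the peaks, in a gap of 251 bp in the homozygous, 352 bp in the heterozygous and 170 bp in the wild-type library. The promoter window printed above lies partly in this gap, with 34 of its bases under a homozygous peak, 0 under a heterozygous peak and 97 under a wild-type peak. The summit on the downstream side was 213, 196 and 206 bp past the start site, so that it was nearly fixed. The upstream summit lay 357, 716 and 315 bp before it, so that the heterozygous summit stood apart.

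The downstream peak was 805, 864 and 840 bp wide in the homozygous, heterozygous and wild-type libraries, with 154, 84 and 107 reads at its summit. It had the highest pile-up among the 7 genes in each library. The upstream peak was 913, 677 and 539 bp wide, with 106, 64 and 53 reads. Its width was 1.69 times that of wild type in the homozygous and 1.26 times in the heterozygous library, against medians of 0.955 and 0.888 over the 16265 regions with a single peak in each library. In 96.6% and 92.5% of these regions the ratio was no higher. The background under both peaks was 12.8 and 13.1 times the lowest of its list in the homozygous, 8.18 and 8.47 times in the heterozygous and 5.66 and 5.69 times in the wild-type library, and its part in the widths was not tested.

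The distal Errfi1 region in all libraries lay 48.7 kb upstream, at 150804503 to 150805107. Its peak was 200 bp wide in the homozygous, 319 bp in the heterozygous and 542 bp in the wild-type library. The pile-ups were 14, 39 and 30 reads over backgrounds of 2.46, 7.72 and 4.26. The folds were 4.34, 4.59 and 5.89, each within its own list. Under lists of equal length the homozygous peak was no longer listed. The region at 150837970 to 150838171, 15.6 kb upstream, was heterozygous only, 202 bp wide with 19 reads. Outside the limit, 54.2 and 55.0 kb upstream, both knockouts had peaks in a pair of regions, at 150799026 to 150799621 and 150798529 to 150798846, where wild type had none. A wild-type peak stood 58.8 kb upstream.

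**Figure D2:**
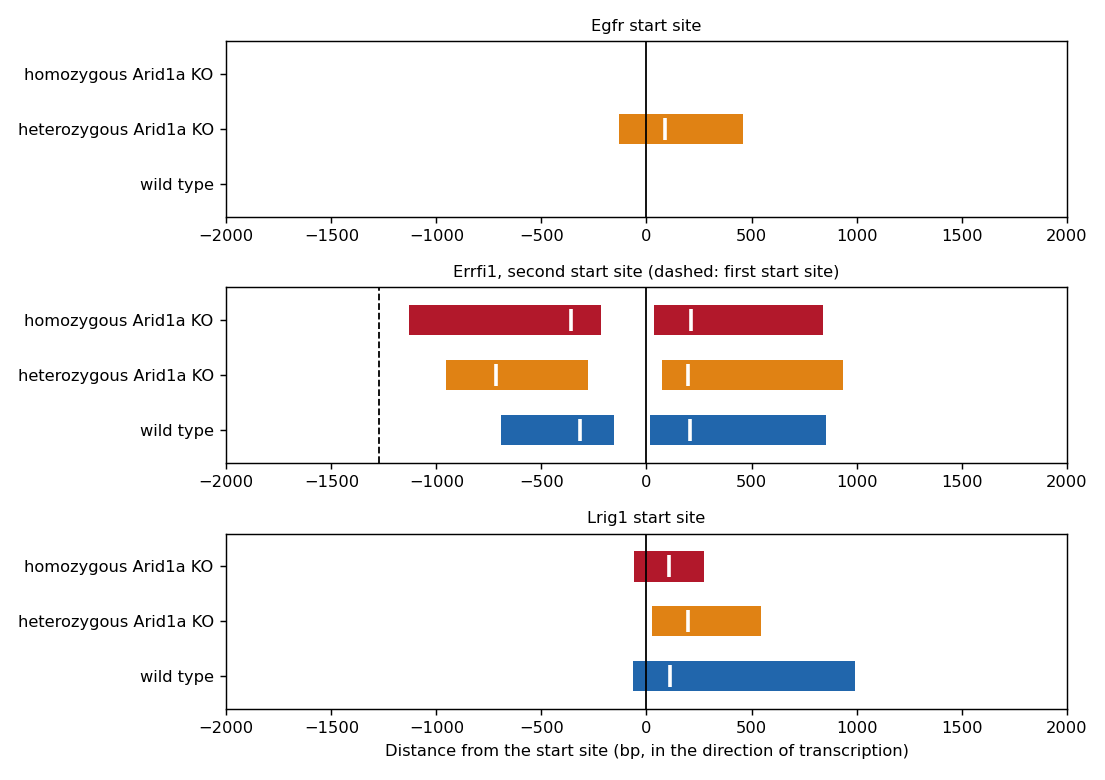
Peaks within 2 kb of the start sites of Egfr, Errfi1 and Lrig1, as bars to scale with the summit as a white mark, 1 row per genotype. The x axis is the distance from the start site in bp in the direction of transcription. Egfr has a heterozygous peak only, Errfi1 has a peak on each side of its downstream start site in all 3 libraries, and the Lrig1 peak is 337, 517 and 1054 bp wide in the homozygous, heterozygous and wild-type libraries.

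Lrig1, on chromosome 6 at 94604529 to 94700298 on the minus strand, had 2 homozygous, 3 heterozygous and 7 wild-type regions. All 9 of its regions lay inside the gene. The peaks covered 912 bp in the homozygous, 1307 bp in the heterozygous and 4641 bp in the wild-type library. The region at the start site, at 94699154 to 94700207, was in all 3 libraries. Its peak was 337 bp wide in the homozygous, 517 bp in the heterozygous and 1054 bp in the wild-type library, with 18, 20 and 42 reads at the summit.

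The homozygous start peak was 0.320 times and the heterozygous one 0.491 times as wide as the wild-type one. Of the 16265 regions with a single peak in each library, 0.879% had as low a ratio in the homozygous and 6.06% in the heterozygous library. The homozygous peak ended sooner than the wild-type one on the side of the gene body. The homozygous and wild-type peaks covered 60 and 62 bases of the promoter sequence printed above, and their summits at 94700039 and 94700031 were 8 bp apart. The heterozygous peak stopped short of the start site used here, at 94700145, and its summit lay at 94699946. That site lies inside the gene, whose end on this side is at 94700298, so that part of the printed sequence is inside it too. No peak reached that end of the gene, and the highest peak end was 94700207. The lowest backgrounds of the lists, 1.73 reads in both knockouts, lay under both knockout peaks, against 4.38 reads under the wild-type peak.

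Between 14.1 and 46.7 kb downstream of the start site, Lrig1 had 5 regions that were in wild type only. At 94685737 to 94686037 and 94684422 to 94685519 a pair was 301 and 1098 bp wide, with 33 and 28 reads. At 94677032 to 94677545 and 94676595 to 94676804 another pair was 514 and 210 bp wide, with 45 and 25 reads. The region at 94653200 to 94653399 was 200 bp wide with 20 reads. The nearest knockout peaks to the first 4 of these regions were those at the start site, 13.6 to 23.1 kb away. Of the 5, the region at 94677032 alone lay above the median −log10 q of the wild-type list, with 53.6% of peaks below it.

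Farther into the gene the knockouts differed from each other. A pair of regions at 94647394 to 94647736 and 94647922 to 94648368, 52.4 and 51.8 kb from the start, was heterozygous only, with 22 and 34 reads, and the nearest wild-type peak was 5.46 and 4.83 kb away. Near the far end of the gene, at 94612978 to 94614249, a wild-type peak of 1264 bp with 47 reads was matched in the homozygous library by 2 peaks of 216 and 359 bp, with 20 and 21 reads, and by none in the heterozygous library. The background was 6.38 reads under that wild-type peak and 2.80 and 2.82 under the homozygous ones. With lists of equal length Lrig1 had 2 homozygous, 3 heterozygous and 4 wild-type regions, and with the floor of 10 it had 1, 2 and 4. The surplus in wild type was smaller under both settings.

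**Figure D3:**
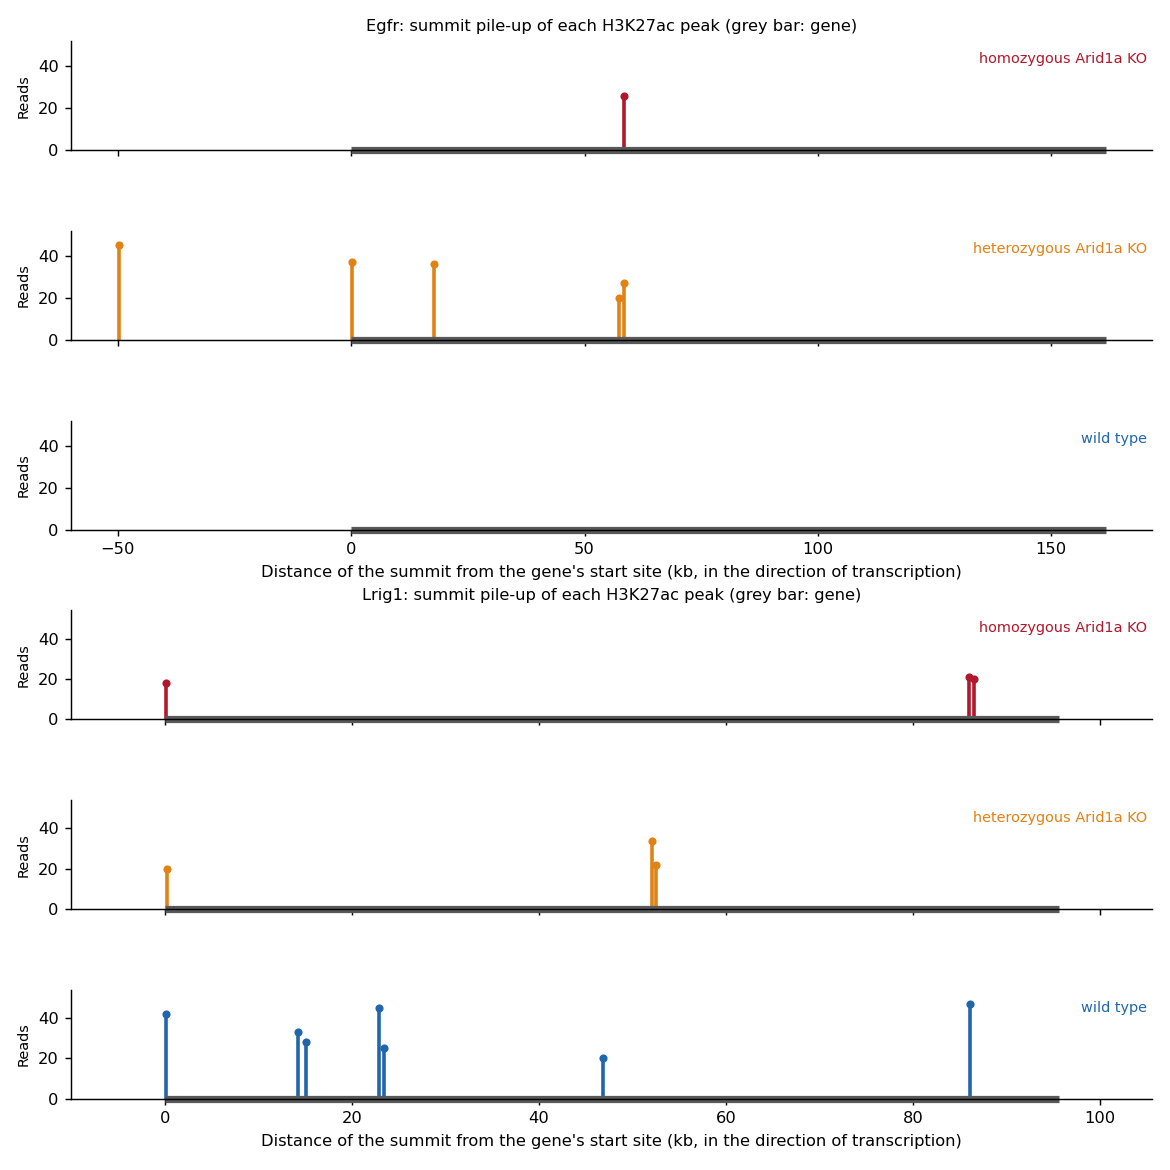
Summit of each H3K27ac peak at Egfr (upper 3 rows) and Lrig1 (lower 3 rows), by its distance in kb from the start site in the direction of transcription, with the recovered number of reads at the summit as height. Heights are not scaled for depth. Wild type has no peak at Egfr and 7 at Lrig1, of which 5, between the start site and the far end of the gene, have no counterpart in either knockout.

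Lrig3, on chromosome 10 at 125966219 to 126015359, had no region in any library. The nearest peak was 576 kb away in the homozygous and heterozygous libraries, on the side of the lower coordinate, and 365 kb away in wild type, on the other side. Of all protein-coding genes, 33.4% had no region by the same rule.

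Over the 7 genes, 2 of 8 homozygous regions were gained against wild type, in a comparison where 25.9% of all homozygous regions were gained. The gains were 1 at Egfr and 1 at Erbb4. Of 14 wild-type regions 8 were lost, 5 of them at Lrig1, where 39.4% of all wild-type regions were lost. With lists of equal length 3 of the 8 wild-type regions left were lost, against 30.3% of all. With the floor of 10, 4 of the 8 left were lost, against 34.1%.

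In the heterozygous library 10 of 15 regions were gained against wild type, 5 of them at Egfr, 2 at Lrig1 and 1 each at Erbb2, Erbb3 and Errfi1, where 21.4% of all heterozygous regions were gained. With lists of equal length 10 of 15 were gained, against 28.1% of all, and with the floor of 10 the gained regions were 4 of the 8 left, against 18.2%. Of 14 wild-type regions 9 were lost, 6 of them at Lrig1, 2 at Erbb3 and 1 at Erbb4, against 42.4% of all wild-type regions. With lists of equal length 3 of the 8 wild-type regions left were lost, against 30.5% of all, and with the floor of 10 the lost regions were 4 of 8, against 38.8%. The wild-type list is shared by the comparisons of both knockouts, whose counts are therefore not independent.

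In the homozygous library against the heterozygous one, 2 of 8 homozygous regions were gained, 1 each at Erbb4 and Lrig1, where 35.1% of all homozygous regions were gained. The lowest backgrounds of these lists were alike, but the median pile-ups were 54 and 47 reads, and the part of depth was not tested. Of 15 heterozygous regions 9 were lost, 4 of them at Egfr and 2 at Lrig1, where 27.6% of all heterozygous regions were lost. With the floor of 10, 5 of the 8 heterozygous regions left were lost, against 23.1% of all. Regions of the same gene are not independent, and these shares rest largely on Egfr and Lrig1.

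By pattern, 5 of the 25 regions were in all 3 libraries (against 36.8% of all regions), 9 in the heterozygous library alone (against 8.65%), 8 in wild type alone (against 23.1%) and 1 in the homozygous library alone (against 12.8%). Of the remaining 2, 1 was in both knockouts (Egfr, against 3.16%) and 1 in the homozygous and wild-type libraries (Lrig1, against 8.81%). Inside a member gene lay 19 of the 25, a count for which no share over all regions was computed. The peaks of the 18 regions found in a single library had a median width of 328 bp and a median of 25 reads at the summit, and those of the 5 common regions 542 bp and 42 reads. Over all regions the medians were 332 bp and 27 reads for those in a single library and 616 bp and 71 reads for those in all 3. Below the median −log10 q of their lists stood 6 of 9 homozygous, 13 of 15 heterozygous and 9 of 14 wild-type member peaks.

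**Figure D4:**
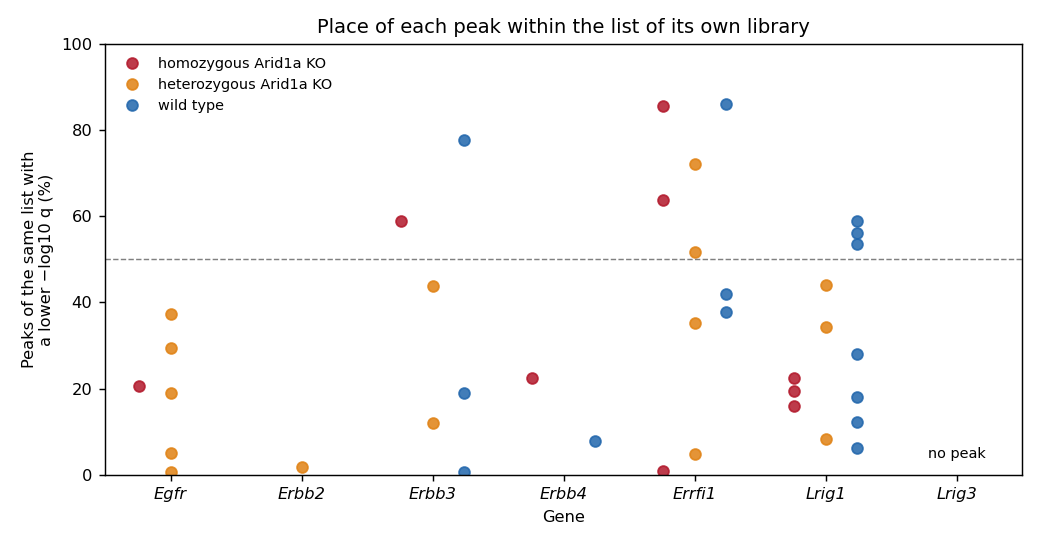
Percentage of peaks in the same library's list with a lower −log10 q than each member peak, by gene and genotype, with the median of each list as a dashed line. The heterozygous Egfr peaks lie between 0.542% and 37.4%, and the downstream Errfi1 start peak is at 85.5% in the homozygous, 72.0% in the heterozygous and 86.0% in the wild-type list.

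Genes with region counts like those of Egfr were few. Over the 3 libraries Crp, Galntl6 and Ildr2 had the same counts (1 homozygous, 5 heterozygous and 0 wild-type regions), and 6 genes, among them Acot12 with 0, 5 and 0 and Man1a with 1, 5 and 1, were at a Euclidean distance of 1.00. For Lrig1, Gm12695, Ptpn1, Slc12a8 and Slc9a8 had the same 2 homozygous, 3 heterozygous and 7 wild-type regions, and 32 genes, the first by name being Aatk, were at a distance of 1.00. Ptpn1 encodes a tyrosine phosphatase that acts on the EGF receptor.

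Of 34 other genes of the pathway, adaptors, effectors and regulators of receptor signalling, 32 had a region. Against wild type, 6 had more regions in the homozygous library, 13 fewer and 15 as many, where 16.6% of the 14574 genes with a region had more and 33.7% fewer. In the heterozygous library 4 had more, 16 fewer and 14 as many, where 11.2% of genes had more and 38.3% fewer. The median difference was 0 for the list and for all genes in both comparisons.

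The neuronal adaptor gene Shc3 had 6 homozygous, 7 heterozygous and 0 wild-type regions, and the endocytic adaptor gene Epn1 had 4, 1 and 1. Fewer regions than in wild type were found at Eps8, whose product is a substrate of the EGF receptor that acts on actin, with 0 homozygous, 3 heterozygous and 10 wild-type regions. The phosphatase genes were alike in direction, with 3, 1 and 8 regions at Ptpn11, which is needed for full RAS activation, and 2, 3 and 7 at Ptpn1. Sh3kbp1, an adaptor in receptor internalisation, had 7 homozygous, 4 heterozygous and 7 wild-type regions. The transcription factor gene Stat3 had 5, 2 and 5, and Stat5b had 4, 2 and 6. These genes were named because a knockout differed from wild type by 3 regions or more.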

How the data were processed

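H3K27ac ChIP-seq peak lists of 3 MIN6 libraries, 1 per genotype, were used. Per the submitters' processing notes, reads were demultiplexed with bcl2fastq and peaks were called with MACS2 on mm10. For the versions, the aligner, the control and the threshold of calling, the sources used here say nothing. The peak widths, positions and summits are the authors' own, called separately for each library. Each deposited fold is the authors' enrichment ratio at the summit within a library, the deposited −log10 p and −log10 q come with it, and the deposited score follows the −log10 q. Folds and −log10 q were used only within a list.

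Touching or overlapping peaks were merged into regions, and all 52938 were the same in bedtools 2.31.1. Presence needed an overlap of 1 bp. Regions were assigned to the nearest of 21887 protein-coding genes of RefSeq GRCm38.p6 within 50 kb, with start sites from its promoter table, which matched 6 of the 7 genes (not Erbb3); exons and introns were not used. Summit pile-ups and backgrounds were solved from the fold, (pile-up + 1) divided by (background + 1), and from a Poisson p, to within 0.001 of the deposited −log10 p, for 34297 of 34298 homozygous, 31363 of 31365 heterozygous and 41489 of 41490 wild-type peaks. They were not scaled for depth, since the sources used here give no totals of reads. Heights listed or drawn side by side are each of their own library and do not measure a difference between libraries. Merging, assignment and pile-ups were checked on simulated data. Python 3.11.15, numpy 2.4.6, pandas 2.3.3, scipy 1.17.1 and matplotlib 3.10.9 were used.

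The genes, lists and settings were chosen with earlier results of these data known. All 7 members were named, and of the pathway list the genes whose number of regions in a knockout differed from wild type by 3 or more. For Egfr and Lrig1 the 5 genes nearest in region counts were named, with ties in alphabetical order. Alternatives were a floor of 10 on −log10 q, lists of equal length (the 31365 strongest peaks of each by −log10 q), a shared length of 50% of the shorter peak, a peak within 1 kb counted as present, assignment to 100 kb, and regions inside genes only.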

Additional observations from a re-analysis of the deposited data

How the results depend on the processing

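Of 36 counts of gained or lost member regions under another setting, 29 stayed within 1.5 times the count reported and 7 did not. With the floor of 10 on −log10 q, 4 regions rather than 8 were lost in the homozygous library against wild type, 4 rather than 10 were gained and 4 rather than 9 lost in the heterozygous library against wild type, and 5 rather than 9 were lost in the homozygous against the heterozygous library. A floor leaves fewer peaks in each list. With lists of equal length, which removes the weakest wild-type and homozygous peaks, 3 regions were lost in each knockout against wild type. With assignment to 100 kb, which adds regions, 4 rather than 2 were gained in the homozygous library. A shared length of 50% of the shorter peak, a peak within 1 kb counted as present, and regions inside genes only kept each of the 6 counts within 1.5 times. No paired analysis was possible because each genotype has 1 library. Weak peaks rest on few reads, and the weakest listed peaks had 10 or 11 reads at the summit, so that presence near the calling threshold is uncertain.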

Other observations

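Genes next to Egfr, Erbb2, Erbb3 and Errfi1 had regions in all 3 libraries, and no region within 50 kb of the other members lay nearer to another gene. Near the far end of Egfr, 4 regions nearer to Fbxo48 were present in the homozygous, 3 of them in the heterozygous and all 4 in the wild-type library, so that the absence of wild-type peaks at Egfr did not extend to its neighbour. Beside Erbb2, the regions inside Mien1, 1 of which also overlapped Grb7, were in all 3 libraries at 98438250 to 98439064, 98446424 to 98448161 and 98457091 to 98458357 on chromosome 11. Grb7 encodes an adaptor that binds ErbB receptors. Inside Ikzf3, farther on the same side, 2 homozygous, 1 heterozygous and 3 wild-type regions lay within 50 kb of Erbb2. Near Erbb3, the 2 regions of Pa2g4, whose product binds ErbB3, were in all 3 libraries, and Esyt1 had 4 homozygous, 2 heterozygous and 4 wild-type regions within 50 kb. Zc3h10 alone had 3, 2 and 4 there, and Rps26 had 2, 2 and 1. Beside Errfi1, Park7 had 4, 2 and 3 regions within 50 kb in the homozygous, heterozygous and wild-type libraries. These genes were not on a list fixed for this purpose. They are examples of genes near the members, and others, such as Pgap3 and Tnfrsf9, were not described.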
